A study of Mus musculus with 10 samples.

Results

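Interferon-stimulated genes (ISGs) were followed in tuft cells sorted from the thymus and the small intestine (SI) and in other SI epithelium. The members were a list of 36 gene symbols, looked up among the 43432 Ensembl identifiers of the count tables through a GRCm38 annotation. Counts were found for 34 of them, and all 34 passed the filter on low counts that left 19281 genes for testing. Gbp5 and Gbp6 were not analysed here.

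RNA-seq libraries were made from 4 thymic tuft, 3 SI tuft and 3 SI epithelium samples. Every mouse was a naive male of 12 weeks on the C57BL6 background, homozygous for Flare25, an allele of Il25 with a fluorescent reporter. Each library came from 1 mouse. All populations were sorted as live CD45- EPCAM+ cells. Tuft cells (1350 to 1900 per thymic library, 35000 to 36000 per SI library) were Flare25+, and the SI epithelium (52000 to 57000 cells) was Flare25-, so that it holds absorptive and secretory cells together. No other thymic epithelium was sorted. In the comparison of thymic tuft cells with SI epithelium the organ and the cell type therefore cannot be told apart, as the groups differ in both. Cells were released by enzymes from the thymus and by DTT and EDTA from the SI, so organ and release cannot be told apart between the tuft populations.

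Interferons of type I and type III signal through JAK kinases to a complex that contains STAT2 and IRF9 and binds DNA at interferon-stimulated response elements. Interferon gamma acts mainly at gamma-activated sites. The induced genes encode viral RNA sensors, enzymes and binding proteins that stop viral RNA, GTPases that attack intracellular pathogens, and proteins that amplify or end the response. Tuft cells are chemosensory epithelial cells known for making IL-25 in the intestine, where they can also be infected by murine norovirus, and thymic tuft cells are a subset of medullary thymic epithelium.

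Promoters were examined because the STAT2 and IRF9 complex and other IRF proteins bind a shared sequence core. In RefSeq promoters of GRCm38.p6 (250 bases before to 50 after each start site), 25 of the 36 members had an entry. The core GAAANNGAAA, searched on both strands so that it also reads as TTTCNNTTTC, was found in 16 of these 25 and in 3.44% of all 32851 promoters. The palindromic gamma-activated core TTCNNNGAA was found in 7 of the 25 members and in 8.30% of all promoters. The windows below run from 230 bases before the start site to 30 bases from it on, 5′ to 3′ on the gene's strand, with GAAANNGAAA or its reverse in capitals. They show members of the tuft classes defined below that had a RefSeq entry, taking those with the highest mean level, and Isg15 and Ifit3b, which were added after the values were seen. No window is printed for members outside these classes, nor for Gbp2 and Ifit2 of the thymic class, which also had an entry. From the class that was higher in tuft cells of both organs:
Oasl2, chr5:114896704-114896963, plus strand: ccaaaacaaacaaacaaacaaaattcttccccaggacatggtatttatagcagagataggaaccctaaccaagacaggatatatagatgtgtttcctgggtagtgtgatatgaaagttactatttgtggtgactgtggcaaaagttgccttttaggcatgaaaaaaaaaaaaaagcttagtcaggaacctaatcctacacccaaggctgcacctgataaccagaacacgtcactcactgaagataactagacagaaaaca
Stat2, chr10:128270268-128270527, plus strand: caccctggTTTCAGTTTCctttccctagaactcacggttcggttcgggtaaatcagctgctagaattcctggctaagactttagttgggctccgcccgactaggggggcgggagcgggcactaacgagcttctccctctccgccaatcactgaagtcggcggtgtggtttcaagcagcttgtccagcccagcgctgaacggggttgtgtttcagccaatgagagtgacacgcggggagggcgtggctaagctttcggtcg
Ifit1, chr19:34640659-34640918, plus strand: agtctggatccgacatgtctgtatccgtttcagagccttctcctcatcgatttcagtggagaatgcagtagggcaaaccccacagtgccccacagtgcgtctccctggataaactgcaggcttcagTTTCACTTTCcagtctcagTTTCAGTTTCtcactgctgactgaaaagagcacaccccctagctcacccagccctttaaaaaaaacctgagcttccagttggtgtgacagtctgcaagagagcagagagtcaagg
Isg15, chr4:156200789-156201048, minus strand: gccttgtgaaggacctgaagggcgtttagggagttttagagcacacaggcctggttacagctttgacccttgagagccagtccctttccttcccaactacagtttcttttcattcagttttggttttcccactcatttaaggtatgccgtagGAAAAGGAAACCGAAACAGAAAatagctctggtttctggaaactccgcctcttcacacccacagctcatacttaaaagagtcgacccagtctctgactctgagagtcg
Ifit3b, chr19:34607727-34607986, plus strand: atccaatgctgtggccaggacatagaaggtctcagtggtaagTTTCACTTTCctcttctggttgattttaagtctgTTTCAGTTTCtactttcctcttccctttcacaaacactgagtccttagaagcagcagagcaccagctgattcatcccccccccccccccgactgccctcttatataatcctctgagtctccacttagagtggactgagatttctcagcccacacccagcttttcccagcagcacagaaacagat
From the class that was higher in SI tuft cells:
Ifi35, chr11:101448182-101448441, plus strand: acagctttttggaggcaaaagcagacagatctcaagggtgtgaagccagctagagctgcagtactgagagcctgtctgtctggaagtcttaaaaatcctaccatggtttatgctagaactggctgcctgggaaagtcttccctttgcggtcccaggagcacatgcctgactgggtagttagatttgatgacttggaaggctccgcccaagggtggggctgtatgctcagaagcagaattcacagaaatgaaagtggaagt
Eif2ak2, chr17:78882543-78882802, minus strand: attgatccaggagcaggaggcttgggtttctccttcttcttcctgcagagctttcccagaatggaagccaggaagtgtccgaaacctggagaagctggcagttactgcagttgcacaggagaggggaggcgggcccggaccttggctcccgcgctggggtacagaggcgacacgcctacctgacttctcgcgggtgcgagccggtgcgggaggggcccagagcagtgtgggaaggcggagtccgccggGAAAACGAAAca
From the class that was higher in thymic tuft cells:
Ifi44, chr3:151749881-151750140, minus strand: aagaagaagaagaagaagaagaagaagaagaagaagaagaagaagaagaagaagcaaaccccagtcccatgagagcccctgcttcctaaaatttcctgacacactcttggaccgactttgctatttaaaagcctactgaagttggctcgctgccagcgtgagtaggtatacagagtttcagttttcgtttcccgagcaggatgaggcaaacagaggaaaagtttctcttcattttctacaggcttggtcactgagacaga
Ifit3, chr19:34583299-34583558, plus strand: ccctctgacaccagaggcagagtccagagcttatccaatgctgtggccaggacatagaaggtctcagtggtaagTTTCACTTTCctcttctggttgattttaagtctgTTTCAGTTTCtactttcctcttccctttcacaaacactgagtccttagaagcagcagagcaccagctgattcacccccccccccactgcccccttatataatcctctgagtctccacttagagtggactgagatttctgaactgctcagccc

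Isg15 held 3 overlapping copies of the core, starting at positions -78, -72 and -66 from the start site. Ifit1 held 2, and the paralogs Ifit3 and Ifit3b held 2 each with the same 34 bases from the start of one copy to the start of the next. Counted over the whole windows, the core was present in 9 of 11 promoters of the members that were higher in tuft cells of both organs, in 1 of 2 of the SI class, in 2 of 4 of the thymic class in 3 of 7 of the other analysed members and in Gbp5, which was not analysed here for expression. These are matches of letters and not shown binding sites.

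The libraries held 38659882 to 73574745 counts over 18889 to 23179 genes. At this depth 3 counts, taken as the detection floor, are 0.0408 to 0.0776 CPM (counts per 1000000 of the library). Levels below are CPM scaled by TMM, a correction for library composition whose factors ran from 0.661 to 1.43. All 12 tuft cell markers of a list, among them Pou2f3, Trpm5 and Dclk1, were higher in both tuft populations than in epithelium. Of all tested genes 10.9% were higher in SI and 28.6% in thymic tuft cells. Il25 is on the list and its reporter set the gates, so its calls against epithelium follow from the sort. All but Il25, 11 of the 12, were lower in thymic than in SI tuft cells, beside 23.1% of all genes. The list summed to 5786 to 6720 CPM in thymic tuft cells, 26804 to 36475 CPM in SI tuft cells and 231 to 465 CPM in SI epithelium. Epithelial libraries also held counts of genes restricted to the thymus, and each was matched to the thymic library it correlated with best over these genes. Epithelial libraries 1, 2 and 3 correlated at 0.740, 0.582 and 0.472 with the match and at 0.703, 0.549 and 0.436 with the next best. A match to 1 library is therefore uncertain. Over 282 genes restricted to the thymus, epithelial libraries 1, 2 and 3 held 0.585%, 0.601% and 0.600% of the counts of thymic libraries 3, 2 and 1. The reverse shares were 0.918%, 0.959% and 0.860% over 11 genes. Exons of 11 members (Dhx58, Dtx3l, Eif2ak2, Gbp2, Gbp7, Ifi35, Oasl1, Parp14, Parp9, Rtp4 and Usp18) overlap another annotated gene, and the libraries mark no strand, so reads of the pair cannot be told apart.

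Markers of other cells differed between the groups too. B cell and plasma cell markers summed to 81.2 to 117 CPM in thymic tuft cells, 3.89 to 6.89 CPM in SI tuft cells and 1.67 to 3.07 CPM in SI epithelium. Myeloid markers summed to 224 to 281 CPM in thymic tuft cells, 15.9 to 51.4 CPM in SI tuft cells and 20.9 to 25.6 CPM in SI epithelium, most of it Lyz2 (183 ± 19.0 CPM in thymic tuft cells). T cell markers summed to 9.25 to 30.3 CPM in thymic tuft cells, 24.6 to 35.1 CPM in SI tuft cells and 2.74 to 6.18 CPM in SI epithelium. The 8 plasmacytoid dendritic cell markers summed to 331 to 580.0 CPM in thymic tuft cells, 109.9 to 165 CPM in SI tuft cells and 519.5 to 551 CPM in SI epithelium. Of that sum Klk1 averaged 79.2 CPM in thymic tuft cells, 32.3 CPM in SI tuft cells and 432 CPM in SI epithelium. Siglech, a defining marker on that list, averaged 0.302 CPM in thymic tuft cells, 0.264 CPM in SI tuft cells and 0 CPM in SI epithelium. Of the 7 genes of the list that were tested, 4 (Ccr9, Ly6d, Irf8 and Tcf4) were higher in thymic than in SI tuft cells and none was lower. Against SI epithelium, Ccr9, Ly6d, Bst2 and Tcf4 were higher in thymic tuft cells and Klk1 was lower. All-gene shares for these comparisons are given below. Fibroblast and endothelial markers summed to 18.3 to 59.8 CPM in thymic tuft cells, 3.38 to 4.68 CPM in SI tuft cells and 3.57 to 4.30 CPM in SI epithelium. The widest differences were in epithelial markers. The 8 enterocyte markers summed to 185 to 374 CPM in thymic tuft cells, 25612 to 31378 CPM in SI tuft cells and 13492 to 15569 CPM in SI epithelium. The 8 Paneth and goblet cell markers summed to 1633 to 2793 CPM in thymic tuft cells, 2113 to 2659 CPM in SI tuft cells and 101447 to 112452 CPM in SI epithelium. Medullary thymic epithelium markers summed to 2810.1 to 2992 CPM in thymic tuft cells, 1063 to 1211 CPM in SI tuft cells and 290.1 to 645 CPM in SI epithelium. Of the 7 tested, Spib alone was higher in SI tuft cells than in epithelium, and 5 (Aire, Fezf2, Krt14, Cldn4 and Krt5) were lower. Epithelial libraries held a small share of the thymic counts of thymus-restricted genes, as given above. The part of those counts in these 5 lower calls was not tested. Aire averaged 225 CPM in thymic tuft cells, 0.153 CPM in SI tuft cells and 1.46 CPM in SI epithelium. Mitochondrial genes took 4.38% to 5.97% of the counts in thymic tuft cells, 24.1% to 33.5% in SI tuft cells and 18.6% to 23.7% in SI epithelium. The part of these cells, of the tuft marker levels and of mitochondrial RNA in the results below was not tested, apart from a fit without mitochondrial genes. In bulk libraries of this kind, fewer cells with a transcript and less of it per cell cannot be told apart.

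Most of the analysed ISGs were higher in tuft cells of either organ than in epithelium, and the tuft populations differed from each other in 22 of the 34. In SI tuft cells against SI epithelium, edgeR's quasi-likelihood test called 22 of 34 members higher and 1 lower (Oasl1) at an adjusted p below 0.05. Of all tested genes 10.9% were called higher and 11.4% lower in this comparison, 22.3% in all. The median log2 fold change was 1.23 over the members and -0.10 over all genes. In thymic tuft cells against SI epithelium 22 members were higher and 2 lower (Oasl1 and Trim25), where 28.6% of all genes were higher, 22.3% lower and 50.9% either. The median log2 fold change was 0.94 over the members and 0.15 over all genes. Both comparisons share the 3 epithelial libraries. In thymic against SI tuft cells only 6 members were higher and 16 were lower, beside 28.5% and 23.1% of all genes (51.6% either way), with a median of -0.54 over the members and 0.12 over all genes. With DESeq2 size factors the all-gene median of this comparison moved to 0.36 and the lower members became 7, and without SI tuft library 4 they became 9. Here and below, libraries were left out 1 at a time. The 7 members that stayed lower in every alternative other than the 2-fold minimum were Ddx58, Eif2ak2, Ifi27, Ifi35, Isg15, Oas2 and Stat2.

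Libraries of SI tuft cells lay wholly above those of SI epithelium for 27 members, wholly below for 2 and overlapped for 5, where 22.8% and 28.4% of all genes lay wholly above and below. For thymic tuft cells against SI epithelium the counts were 23, 2 and 9, beside 28.1% and 27.4% of all genes. Thymic lay above SI tuft libraries for 6 members, below for 16 and overlapped for 12, beside 26.3% and 24.9%.

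**Figure D1:**
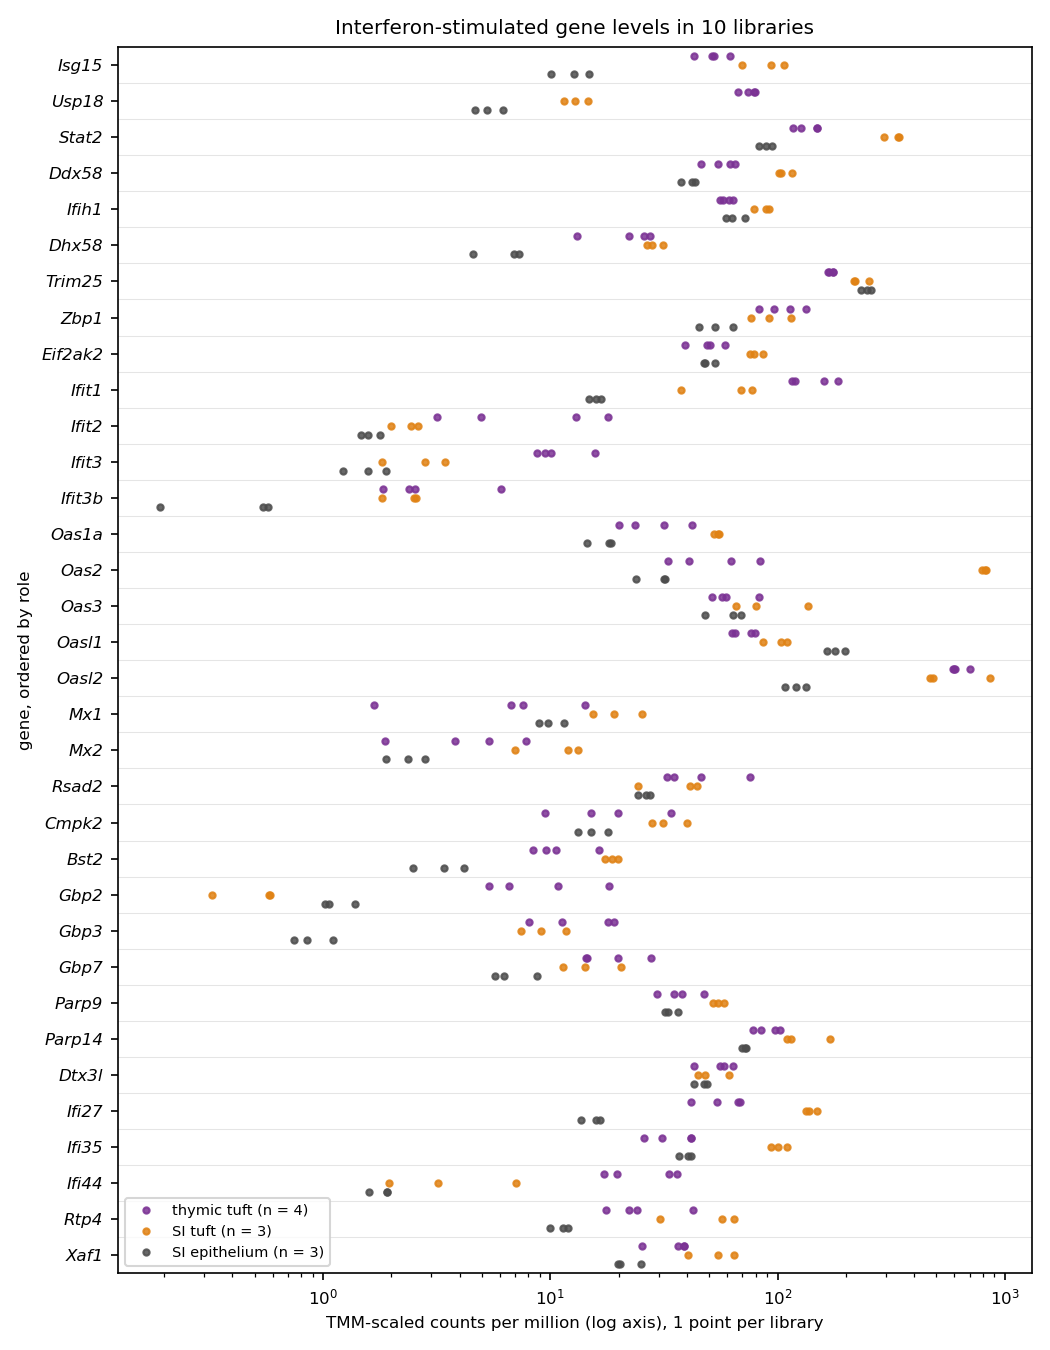
Level of each analysed member in every library, in TMM-scaled CPM on a log axis, with 1 point per library of thymic tuft cells, SI tuft cells and SI epithelium and genes ordered by role. SI epithelium lies lowest for most members, Oas2 stands far to the right in SI tuft cells, Usp18, Ifi44 and Gbp2 are highest in thymic tuft cells, and Oasl1 is highest in SI epithelium.

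A member was called tuft-wide when it was higher than SI epithelium in both tuft populations. It was called an SI tuft member when it was higher in SI tuft cells than in either other population without being higher in thymic tuft cells than in epithelium, and a thymic tuft member when it was higher in thymic tuft cells than in either other population without being higher in SI tuft cells than in epithelium. There were 17 tuft-wide members (of 34, against 6.24% of all tested genes), 4 SI tuft members (11.8%, against 4.18%), 4 thymic tuft members (11.8%, against 19.3%) and 9 others (26.5%, against 70.3%). The tuft-wide members split further. Isg15, Stat2, Ddx58, Oas1a, Oas2, Ifi27, Rtp4 and Xaf1 were higher in SI than in thymic tuft cells, Usp18 and Ifit1 were higher in thymic tuft cells, and Dhx58, Zbp1, Ifit3b, Oasl2, Bst2, Gbp3 and Gbp7 differed by less than the test could call. The class of Isg15, Ifi27, Ifit1, Oasl2, Dhx58, Bst2, Gbp3, Ifit3 and Gbp2 did not change in any alternative that could be run. The tuft-wide count fell to 10 without epithelial library 1 and to 11 without epithelial library 3, and to 7 when a change of at least 2-fold was required.

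**Figure D2:**
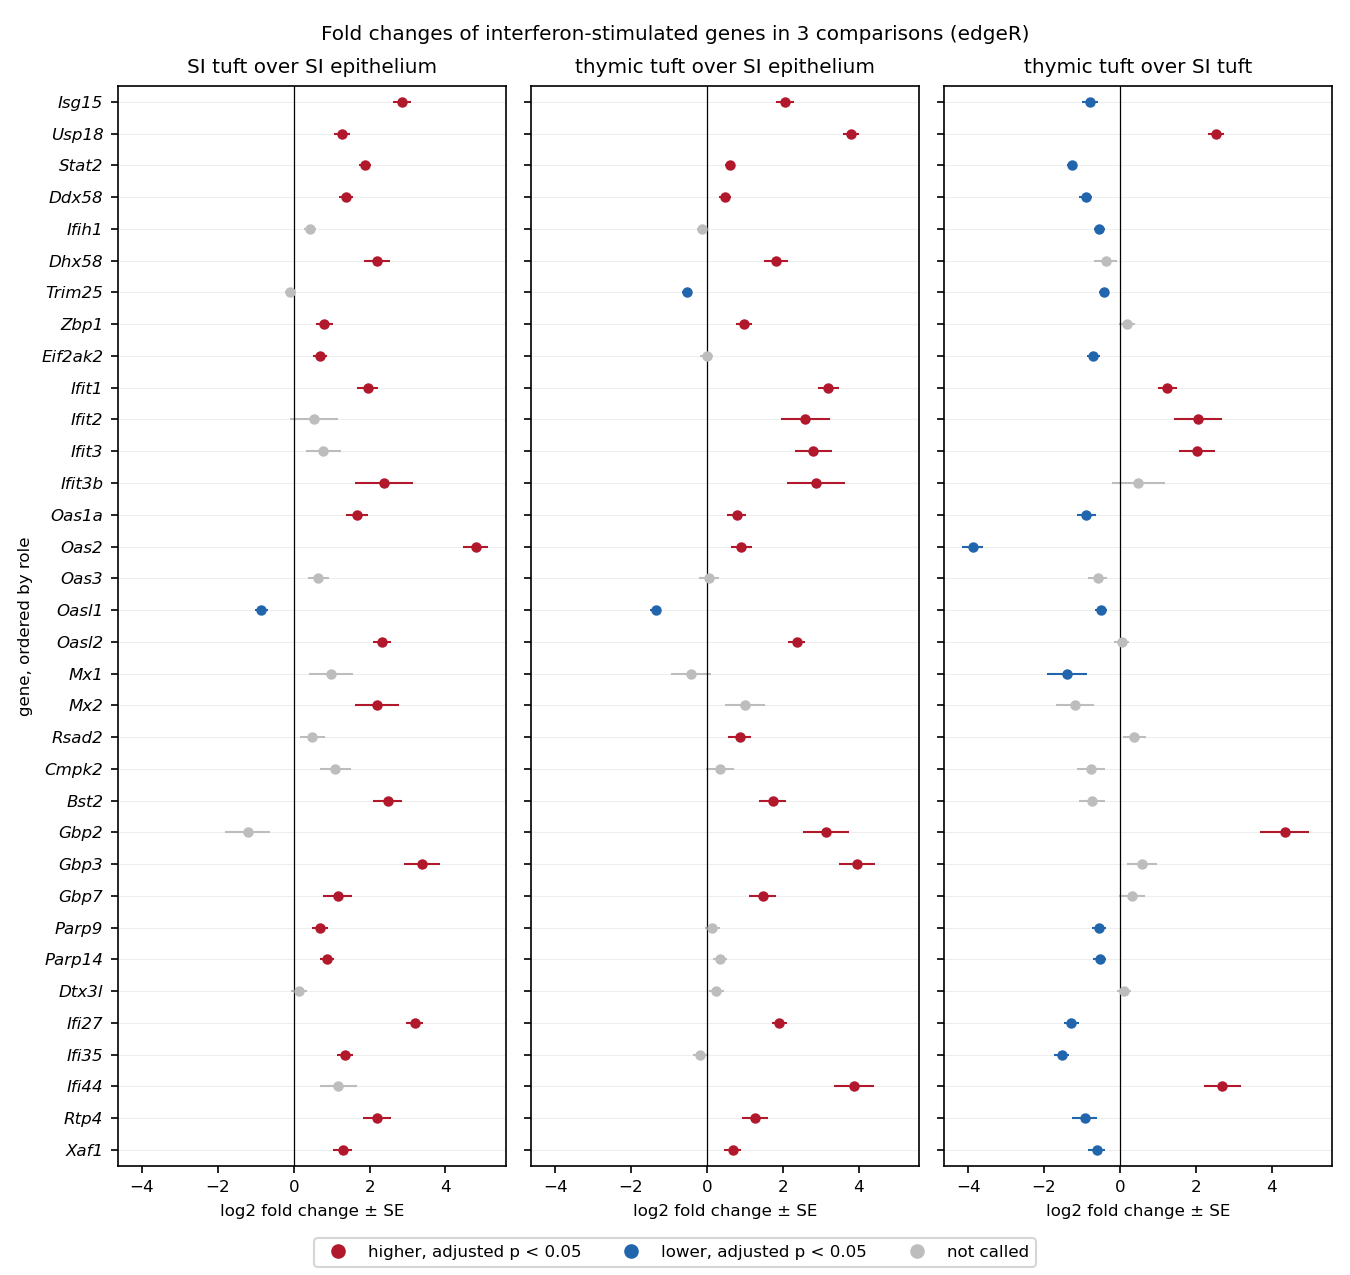
Log2 fold change of each member, with its standard error, for SI tuft cells over SI epithelium, thymic tuft cells over SI epithelium and thymic over SI tuft cells. Red points were called higher and blue points lower at an adjusted p below 0.05, 22 and 1 in the first panel, 22 and 2 in the second and 6 and 16 in the third.

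Interferon genes themselves had few counts. Of 21 interferon genes, 12 had no count in any library and 3 had enough counts to be tested. Ifng had 0, 63, 188 and 10 counts in thymic tuft libraries 1 to 4, none in SI tuft libraries and 1, 1 and 3 in SI epithelium. Ifnl2, a type III interferon, had 6, 12, 136 and 12 counts in thymic tuft libraries, 0, 1 and 0 in SI tuft libraries and none in SI epithelium. Ifnl3 had 61, 14, 25 and 84 counts in thymic tuft libraries, none in SI tuft libraries and 1, 3 and 0 in SI epithelium. They passed the filter on low counts only through the thymic libraries, so no test is given. The thymic counts were unevenly spread over the 4 libraries. Ifnb1 had 21 counts in thymic library 2 and 1 in thymic library 3, and none elsewhere.

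Of 13 genes on a list of receptors and proximal signalling genes, 6 were higher and 1 lower in SI tuft cells than in epithelium, 8 were higher and 2 lower in thymic tuft cells than in epithelium, and 4 were higher and 5 lower in thymic than in SI tuft cells. Over all tested genes 22.3%, 50.9% and 51.6% were called either way in these comparisons. Ifnar1, a chain of the type I receptor, averaged 50.2 ± 7.52 CPM in thymic tuft cells, 60.4 ± 11.4 CPM in SI tuft cells and 34.02 ± 0.782 CPM in SI epithelium (mean ± SD, n = 4, 3 and 3). It was higher in SI tuft cells (log2 fold change ± SE 0.83 ± 0.20, adjusted p = 0.0114) and in thymic tuft cells (0.56 ± 0.19, adjusted p = 0.0278) than in epithelium. Ifnlr1, the specific chain of the type III receptor, averaged 20.3 ± 8.56 CPM in thymic tuft cells, 72.6 ± 12.8 CPM in SI tuft cells and 35.6 ± 6.78 CPM in SI epithelium. It was lower in thymic than in SI tuft cells (-1.84 ± 0.34, adjusted p = 0.000829). Ifngr1, the ligand-binding chain of the interferon gamma receptor, differed in direction from most members. It averaged 23.9 ± 5.87 CPM in thymic tuft cells, 62.7 ± 3.81 CPM in SI tuft cells and 136 ± 17.6 CPM in SI epithelium. It was lower than SI epithelium in SI tuft cells (-1.11 ± 0.21, adjusted p = 0.00262) and in thymic tuft cells (-2.51 ± 0.20, adjusted p = 8.65e-07).

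Stat2 is a member, and its partner Irf9 is on the signalling list. Stat2 (ENSMUSG00000040033, GRCm38 chromosome 10, 128270559 to 128292849, plus strand) measured 148, 127, 117 and 149 CPM in thymic tuft cells. SI tuft libraries had 294, 341 and 339 CPM and epithelial libraries 82.7, 94.3 and 89.2 CPM. SI tuft libraries were highest, thymic libraries lay between, and no group overlapped another. The log2 fold change of Stat2 was 1.87 ± 0.16, adjusted p = 3.57e-06 in SI tuft cells and 0.61 ± 0.14, adjusted p = 0.00372 in thymic tuft cells against SI epithelium, and -1.26 ± 0.14, adjusted p = 1.29e-05 in thymic against SI tuft cells. Irf9 had the same order, with 58.2 ± 13.8 CPM in thymic tuft cells, 116 ± 21.04 CPM in SI tuft cells and 36.99 ± 6.603 CPM in SI epithelium. The feedback inhibitors Socs3 (2.60 ± 0.35, adjusted p = 6.23e-05) and Socs1 (3.19 ± 0.49, adjusted p = 0.000182) were higher in thymic than in SI tuft cells.

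Of 9 interferon regulatory factors, 3 were higher and 3 lower in SI tuft cells than in epithelium, 4 were higher and none lower in thymic tuft cells than in epithelium, and 4 were higher and 4 lower in thymic than in SI tuft cells. All-gene shares called either way in the same comparisons were 22.3%, 50.9% and 51.6%. Irf7, an ISG that amplifies type I interferon production, averaged 164 ± 14.4 CPM in thymic tuft cells, 501 ± 46.9 CPM in SI tuft cells and 81.5 ± 6.62 CPM in SI epithelium. Against SI epithelium the log2 fold change was 2.62 ± 0.15, adjusted p = 1.71e-07 in SI tuft cells and 1.01 ± 0.14, adjusted p = 8.20e-05 in thymic tuft cells, and it was -1.62 ± 0.14, adjusted p = 1.21e-06 in thymic against SI tuft cells. Irf5 averaged 26.1 ± 11.2 CPM in thymic tuft cells, 2.09 ± 1.77 CPM in SI tuft cells and 0.917 ± 0.570 CPM in SI epithelium and was higher in thymic than in SI tuft cells (3.65 ± 0.70, adjusted p = 0.00102). Irf4 averaged 97.9 ± 5.62 CPM in thymic tuft cells and 0.527 ± 0.326 CPM in SI epithelium and had no count in SI tuft libraries.

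Of the pair that acts through ubiquitin-like modification, the modifier favoured SI tuft cells and its protease thymic ones. Isg15 (ENSMUSG00000035692, GRCm38 chromosome 4, 156199424 to 156200818, minus strand) encodes the ubiquitin-like protein that is attached to target proteins during the response. It measured 61.9, 51.3, 42.9 and 52.6 CPM in thymic tuft cells. It had 106, 70.1 and 93.7 CPM in SI tuft cells and 10.03, 12.7 and 14.7 CPM in SI epithelium. The 3 groups did not overlap, and the log2 fold change was 2.85 ± 0.24, adjusted p = 4.21e-06 in SI tuft cells and 2.06 ± 0.22, adjusted p = 1.15e-05 in thymic tuft cells against SI epithelium. Thymic tuft cells had less than SI tuft cells (-0.79 ± 0.21, adjusted p = 0.00759). Usp18 (ENSMUSG00000030107, GRCm38 chromosome 6, 121245906 to 121270917, plus strand) encodes the protease that removes ISG15 from its targets and also acts as a brake on type I receptor signalling. It measured 66.97, 79.02, 79.5 and 74.3 CPM in thymic tuft cells. The gene had 14.7, 11.5 and 12.9 CPM in SI tuft cells and 6.19, 5.29 and 4.65 CPM in SI epithelium. Thymic libraries were far above both SI groups, which were themselves separate. The log2 fold change was 3.80 ± 0.22, adjusted p = 7.28e-08 in thymic tuft cells and 1.27 ± 0.21, adjusted p = 0.000808 in SI tuft cells against SI epithelium, and 2.53 ± 0.21, adjusted p = 1.03e-06 in thymic against SI tuft cells.

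Nucleic acid sensors were divided. Of the 6 members in this role, 4 were higher in SI tuft cells than in epithelium, 3 were higher and 1 lower in thymic tuft cells than in epithelium, and 4 were lower in thymic than in SI tuft cells. Among all tested genes, 10.9% were higher in the first comparison, 28.6% higher and 22.3% lower in the second, and 23.1% lower in the third. Trim25, the ubiquitin ligase that activates the RNA sensor RIG-I, measured 166, 176, 176 and 168 CPM in thymic tuft cells. The SI tuft libraries measured 217, 219.8 and 252 CPM and those of SI epithelium 257, 247 and 233 CPM. It was lower in thymic tuft cells than in epithelium (-0.52 ± 0.12, adjusted p = 0.00400), which ended with DESeq2 size factors, and no difference was called between SI tuft cells and epithelium (-0.10 ± 0.13, adjusted p = 0.653). Its lower level in thymic than in SI tuft cells (-0.42 ± 0.12, adjusted p = 0.0130) ended without SI tuft library 4 (adjusted p = 0.0634). Ddx58, which encodes RIG-I, measured 54.7, 65.1, 45.96 and 62.1 CPM in thymic tuft cells. Levels were 101, 103 and 116 CPM in SI tuft cells and 37.7, 41.97 and 43.3 CPM in SI epithelium. SI tuft libraries were highest (1.38 ± 0.18, adjusted p = 0.000152 against SI epithelium) and thymic libraries were only just above epithelium (0.47 ± 0.17, adjusted p = 0.0315). That second call ended without epithelial libraries 1, 2 or 3 or SI tuft library 3 or thymic library 2 (adjusted p = 0.0528 to 0.140). Zbp1, a sensor of Z-form nucleic acids that can start cell death, measured 113, 134, 96.5 and 82.4 CPM in thymic tuft cells. For SI tuft cells the values were 114, 76.6 and 91.8 CPM, and for SI epithelium 45.01, 63.8 and 52.9 CPM. It was higher than SI epithelium in SI tuft cells (0.80 ± 0.22, adjusted p = 0.0220) and in thymic tuft cells (0.98 ± 0.21, adjusted p = 0.00232). The call in SI tuft cells ended without epithelial libraries 1 or 3 or SI tuft libraries 2 or 4 (adjusted p = 0.0525 to 0.107).

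Dhx58, which encodes LGP2, a regulator of the other RIG-I-like sensors, was tuft-wide at 27.6, 22.1, 13.1 and 25.9 CPM in thymic tuft cells. SI tuft libraries had 26.6, 28.2 and 31.4 CPM and epithelial libraries 7.304, 4.59 and 6.94 CPM. Dhx58 had log2 fold changes of 2.19 ± 0.33, adjusted p = 0.000518 in SI tuft cells and 1.82 ± 0.32, adjusted p = 0.000506 in thymic tuft cells against SI epithelium. Ifih1, which encodes MDA5, a sensor of long double-stranded RNA, measured 55.9, 63.5, 61.4 and 57.3 CPM in thymic tuft cells. It had 91.9, 79.1 and 89.05 CPM in SI tuft cells and 71.9, 59.6 and 62.9 CPM in SI epithelium. No difference from SI epithelium was called in SI tuft cells (0.42 ± 0.16, adjusted p = 0.0798) or in thymic tuft cells (-0.12 ± 0.15, adjusted p = 0.510). Thymic tuft cells had less than SI tuft cells (-0.54 ± 0.15, adjusted p = 0.00868), a call that ended with DESeq2 size factors. Eif2ak2, which encodes the double-stranded RNA-dependent kinase PKR, was an SI tuft member at 58.6, 49.1, 39.1 and 50.4 CPM in thymic tuft cells. The gene had 85.9, 78.8 and 75.7 CPM in SI tuft cells and 53.2, 48.1 and 47.3 CPM in SI epithelium. SI tuft libraries lay above all others (0.69 ± 0.18, adjusted p = 0.0170 against SI epithelium), while thymic and epithelial libraries overlapped (-0.0073 ± 0.17, adjusted p = 0.976). The call against epithelium ended without epithelial libraries 2 or 3 or SI tuft library 2 (adjusted p = 0.0600 to 0.0760).

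Sensors and adaptors upstream of interferon genes that are not members were tested as a further list. Of 12 tested, 1 was higher and 2 lower in SI tuft cells than in epithelium, 4 were higher and 5 lower in thymic tuft cells than in epithelium, and 4 were higher and 3 lower in thymic than in SI tuft cells. Either way, 22.3%, 50.9% and 51.6% of all tested genes were called in these comparisons. Tmem173, which encodes STING, averaged 78.1 ± 10.2 CPM in thymic tuft cells, 0.826 ± 0.430 CPM in SI tuft cells and 1.89 ± 0.382 CPM in SI epithelium. Its log2 fold change was 6.56 ± 0.40, adjusted p = 1.10e-07 in thymic against SI tuft cells. Mavs, the adaptor of RIG-I and MDA5, averaged 36.5 ± 14.01 CPM in thymic tuft cells, 93.7 ± 11.8 CPM in SI tuft cells and 107 ± 3.71 CPM in SI epithelium. It was lower in thymic tuft cells than in SI tuft cells (-1.36 ± 0.25, adjusted p = 0.000812) and than in epithelium (-1.55 ± 0.25, adjusted p = 0.000314). Tlr9 averaged 17.6 ± 11.1 CPM in thymic tuft cells, 4.599 ± 1.99 CPM in SI tuft cells and 0.208 ± 0.155 CPM in SI epithelium. It was higher than SI epithelium in SI tuft cells (4.43 ± 0.73, adjusted p = 0.000920) and in thymic tuft cells (6.36 ± 0.78, adjusted p = 3.19e-05).

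The IFIT family, whose proteins bind foreign RNA ends or block translation, leaned toward thymic tuft cells. All 4 members were higher in thymic tuft cells than in epithelium, 2 were higher in SI tuft cells than in epithelium, and 3 were higher in thymic than in SI tuft cells. For all tested genes these shares were 28.6%, 10.9% and 28.5%. Ifit1 (ENSMUSG00000034459, GRCm38 chromosome 19, 34640871 to 34650009, plus strand), which binds RNA lacking the cap methylation of host messengers, measured 119, 185, 116 and 161 CPM in thymic tuft cells. The SI tuft libraries measured 68.9, 37.6 and 76.8 CPM and those of SI epithelium 14.8, 15.9 and 16.7 CPM. The 3 groups did not overlap. Its log2 fold change was 3.20 ± 0.28, adjusted p = 1.70e-06 in thymic tuft cells and 1.95 ± 0.27, adjusted p = 0.000271 in SI tuft cells against SI epithelium, and 1.25 ± 0.25, adjusted p = 0.00152 in thymic against SI tuft cells. Ifit3 measured 10.1, 9.48, 15.8 and 8.78 CPM in thymic tuft cells. Levels were 3.45, 1.82 and 2.82 CPM in SI tuft cells and 1.901, 1.23 and 1.57 CPM in SI epithelium. Only the thymic libraries stood above the rest (2.81 ± 0.48, adjusted p = 0.000441 against SI epithelium and 2.03 ± 0.46, adjusted p = 0.00320 against SI tuft cells), and no difference was called between the SI groups (0.78 ± 0.47, adjusted p = 0.270).

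Ifit2 had the same class at 17.9, 3.18, 13.0 and 4.98 CPM in thymic tuft cells. For SI tuft cells the values were 2.43, 1.99 and 2.61 CPM, and for SI epithelium 1.58, 1.46 and 1.79 CPM. By coefficient of variation (70.7%) the thymic libraries differed among themselves more than for any other member, and all 4 lay above the SI libraries. The log2 fold change was 2.60 ± 0.64, adjusted p = 0.00510 against SI epithelium and 2.06 ± 0.62, adjusted p = 0.0157 against SI tuft cells. The call against SI tuft cells ended without SI tuft library 3 or thymic library 1 (adjusted p = 0.0516 to 0.0604). Ifit3b, a near-identical copy of Ifit3, measured 6.07, 1.85, 2.399 and 2.53 CPM in thymic tuft cells. SI tuft libraries had 1.82, 2.504 and 2.56 CPM and epithelial libraries 0.546, 0.191 and 0.575 CPM. It was higher than SI epithelium in thymic tuft cells (2.87 ± 0.76, adjusted p = 0.00813) and in SI tuft cells (2.38 ± 0.77, adjusted p = 0.0447). The second call ended without epithelial libraries 1, 2 or 3 or SI tuft libraries 2, 3 or 4 (adjusted p = 0.0710 to 0.172). How reads that fit both copies were counted is not given in the sources used here, so the split between Ifit3 and Ifit3b is uncertain. The windows printed above share both core matches.

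**Figure D3:**
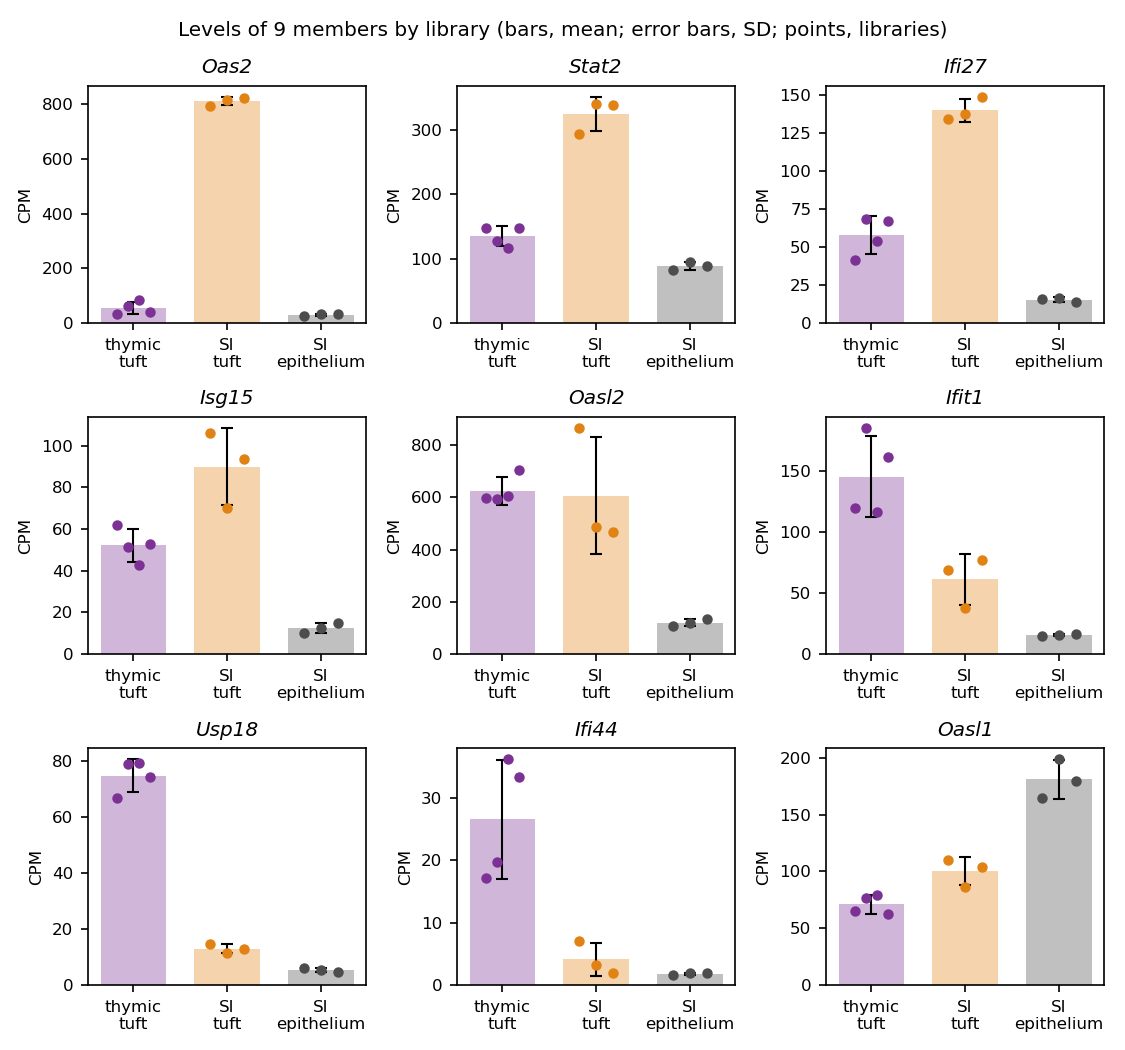
Levels of 9 members in CPM, with bars for the mean of thymic tuft cells (4 libraries), SI tuft cells (3) and SI epithelium (3), error bars for the SD and points for single libraries, each panel from 0. Oas2 is high in SI tuft cells alone, Isg15 and Oasl2 are high in both tuft populations, Usp18, Ifit1 and Ifi44 are highest in thymic tuft cells, and Oasl1 is highest in SI epithelium.

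The OAS family held the member with the largest fold change in SI tuft cells and the member that was lower in both tuft populations. OAS enzymes sense double-stranded RNA and make oligoadenylates that activate RNase L, and the OASL proteins are relatives in which oligoadenylate synthesis is lost (OASL1) or kept (OASL2) in mice. Oas2 (ENSMUSG00000032690, GRCm38 chromosome 5, 120730333 to 120749853, minus strand) measured 32.98, 62.2, 83.6 and 40.9 CPM in thymic tuft cells. It had 795, 815 and 823 CPM in SI tuft cells and 23.9, 31.7 and 32.1 CPM in SI epithelium. SI tuft libraries agreed within a coefficient of variation of 1.78% and lay far above every other library, and the highest epithelial library was just below the lowest thymic one. Its log2 fold change was 4.79 ± 0.33, adjusted p = 7.91e-07 in SI tuft cells and 0.91 ± 0.27, adjusted p = 0.0151 in thymic tuft cells against SI epithelium, and -3.88 ± 0.28, adjusted p = 3.99e-07 in thymic against SI tuft cells. The thymic call ended without epithelial library 1 (adjusted p = 0.0779).

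Oasl2 (ENSMUSG00000029561, GRCm38 chromosome 5, 114896936 to 114912234, plus strand) measured 599, 592, 605 and 704 CPM in thymic tuft cells. The gene had 864, 485 and 467 CPM in SI tuft cells and 108, 120.1 and 134 CPM in SI epithelium. Thymic and SI tuft libraries overlapped and both lay above SI epithelium, with log2 fold changes of 2.37 ± 0.22, adjusted p = 3.20e-06 in thymic and 2.33 ± 0.23, adjusted p = 1.59e-05 in SI tuft cells. No difference between the tuft populations was called (0.046 ± 0.20, adjusted p = 0.869). Oasl1 (ENSMUSG00000041827, GRCm38 chromosome 5, 114923240 to 114937915, plus strand), which limits translation of Irf7 mRNA in mice, measured 64.9, 76.6, 79.7 and 62.9 CPM in thymic tuft cells. The SI tuft libraries measured 110.2, 86.5 and 104 CPM and those of SI epithelium 165, 199 and 179 CPM. Here SI epithelium was highest and thymic tuft cells lowest, with no overlap of groups. The log2 fold change was -1.35 ± 0.15, adjusted p = 1.59e-05 in thymic tuft cells and -0.85 ± 0.17, adjusted p = 0.00280 in SI tuft cells against SI epithelium. Its lower level in thymic than in SI tuft cells (-0.50 ± 0.15, adjusted p = 0.0173) ended with DESeq2 size factors and without SI tuft libraries 2 or 4 (adjusted p = 0.0550 to 0.0660).

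The remaining OAS members were Oas1a and Oas3. Oas1a measured 31.5, 23.7, 20.1 and 42.05 CPM in thymic tuft cells. Levels were 54.5, 55.5 and 52.5 CPM in SI tuft cells and 14.5, 18.5 and 18.1 CPM in SI epithelium. The 3 groups did not overlap. On the log2 scale its fold change was 1.67 ± 0.28, adjusted p = 0.000976 in SI tuft cells and 0.78 ± 0.26, adjusted p = 0.0240 in thymic tuft cells against SI epithelium. The thymic call ended without epithelial libraries 1, 2 or 3 (adjusted p = 0.0595 to 0.110). Thymic tuft cells had less than SI tuft cells (-0.88 ± 0.25, adjusted p = 0.0115), a call that ended with DESeq2 size factors. Oas1a has close paralogs, so its counts are uncertain. Oas3 measured 82.7, 57.1, 59.1 and 51.7 CPM in thymic tuft cells. For SI tuft cells the values were 65.9, 79.99 and 136 CPM, and for SI epithelium 68.8, 63.9 and 47.99 CPM. No comparison called it (adjusted p = 0.124 for SI tuft cells and adjusted p = 0.873 for thymic tuft cells against SI epithelium, and adjusted p = 0.0758 between the tuft populations).

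Among 5 restriction factors, 2 were higher in SI tuft cells than in epithelium, 2 were higher in thymic tuft cells than in epithelium, and 1 was lower in thymic than in SI tuft cells. Matching shares of all tested genes were 10.9%, 28.6% and 23.1%. Bst2, which encodes tetherin, a membrane protein that holds budding virus at the cell surface, was tuft-wide at 8.36, 9.55, 10.5 and 16.3 CPM in thymic tuft cells. SI tuft libraries had 19.8, 17.4 and 18.7 CPM and epithelial libraries 4.16, 3.42 and 2.48 CPM. Its log2 fold change was 2.48 ± 0.38, adjusted p = 0.000577 in SI tuft cells and 1.74 ± 0.36, adjusted p = 0.00167 in thymic tuft cells against SI epithelium. Bst2 is also on the list of plasmacytoid dendritic cell markers, whose sums per group are given above, and the part of those cells in its level was not tested. Rsad2, which encodes viperin, an enzyme that makes a chain-terminating nucleotide, measured 46.1, 32.7, 35.2 and 75.5 CPM in thymic tuft cells. It had 41.1, 24.2 and 44.2 CPM in SI tuft cells and 27.5, 24.3 and 26.3 CPM in SI epithelium. It was higher in thymic tuft cells than in epithelium (0.86 ± 0.31, adjusted p = 0.0353), and this ended without epithelial libraries 1, 2 or 3 or thymic library 4 (adjusted p = 0.0817 to 0.116). Cmpk2, a nucleotide kinase next to Rsad2 in the genome, measured 19.8, 33.96, 15.1 and 9.49 CPM in thymic tuft cells. The gene had 31.5, 27.95 and 39.8 CPM in SI tuft cells and 15.2, 17.98 and 13.2 CPM in SI epithelium. No comparison called it (1.10 ± 0.40, adjusted p = 0.0699 in SI tuft cells against SI epithelium).

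The MX GTPases are defective in most laboratory strains including C57BL/6, where they serve only as transcripts of the response. Mx1 measured 7.57, 14.3, 6.73 and 1.67 CPM in thymic tuft cells. The SI tuft libraries measured 25.3, 15.5 and 19.03 CPM and those of SI epithelium 8.89, 9.81 and 11.5 CPM. SI tuft libraries were highest, and the gene was lower in thymic than in SI tuft cells (-1.40 ± 0.53, adjusted p = 0.0429). This call ended under 15 of 21 alternatives, among them DESeq2 size factors and the removal of any of 8 libraries. Mx2 measured 5.38, 1.88, 7.86 and 3.802 CPM in thymic tuft cells. Levels were 13.3, 6.99 and 11.96 CPM in SI tuft cells and 1.901, 2.36 and 2.801 CPM in SI epithelium. It was higher in SI tuft cells than in epithelium (2.19 ± 0.57, adjusted p = 0.0165), a call that ended without epithelial libraries 1 or 2 or SI tuft libraries 2 or 4 (adjusted p = 0.0526 to 0.0789).

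The guanylate-binding proteins (GBPs), GTPases that attack the vacuoles and membranes of intracellular pathogens and that respond strongly to interferon gamma, were low but were higher in thymic tuft cells than in epithelium for all 3 analysed. In that comparison 28.6% of all tested genes were higher. Gbp2 (ENSMUSG00000028270, GRCm38 chromosome 3, 142620602 to 142638008, plus strand) measured 6.56, 18.1, 5.39 and 10.8 CPM in thymic tuft cells. For SI tuft cells the values were 0.583, 0.327 and 0.581 CPM, and for SI epithelium 1.02, 1.38 and 1.06 CPM. It was the member with the lowest SI tuft level, below even SI epithelium in every library, and thymic tuft cells were above both. The log2 fold change was 3.14 ± 0.60, adjusted p = 0.000989 against SI epithelium and 4.35 ± 0.65, adjusted p = 0.000146 against SI tuft cells. The difference between SI tuft cells and SI epithelium was not called (-1.21 ± 0.59, adjusted p = 0.173). Gbp3 measured 17.9, 8.08, 11.2 and 19.1 CPM in thymic tuft cells. SI tuft libraries had 9.06, 7.46 and 11.8 CPM and epithelial libraries 0.847, 0.743 and 1.11 CPM. It was higher than SI epithelium in thymic (3.96 ± 0.47, adjusted p = 2.37e-05) and SI tuft cells (3.39 ± 0.47, adjusted p = 0.000253). Gbp7 measured 14.5, 27.7, 19.9 and 14.3 CPM in thymic tuft cells. It had 20.5, 11.3 and 14.3 CPM in SI tuft cells and 6.27, 8.72 and 5.71 CPM in SI epithelium. The log2 fold changes were 1.47 ± 0.36, adjusted p = 0.00490 in thymic and 1.16 ± 0.37, adjusted p = 0.0434 in SI tuft cells. The call for SI tuft cells ended without epithelial libraries 1, 2 or 3 or SI tuft libraries 2 or 4 (adjusted p = 0.0674 to 0.171). GBP genes on chromosome 3 are close copies, so reads can be split between them.

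Of the ADP-ribosylation genes, Parp14 and Parp9 were higher in SI tuft cells than in either other population, and Dtx3l was not called. Among all tested genes 10.9% were higher in SI tuft cells than in epithelium and 23.1% lower in thymic than in SI tuft cells. The SI tuft class of Parp9 was lost in 17 of 21 alternatives, among them DESeq2 size factors and upper quartile scaling. That of Parp14 was lost in 10 of 21. Parp14 became tuft-wide with DESeq2 size factors, with a filter of 10 CPM in 3 libraries and by the DESeq2 Wald test. PARP9 and the ubiquitin ligase DTX3L form a complex, and PARP14 is a related ADP-ribosyltransferase. Parp14 measured 84.9, 97.3, 78.03 and 103 CPM in thymic tuft cells. The gene had 109.5, 115 and 169.9 CPM in SI tuft cells and 72.8, 71.6 and 69.96 CPM in SI epithelium. It was higher in SI tuft cells than in epithelium (0.88 ± 0.19, adjusted p = 0.00606). Its lower level in thymic than in SI tuft cells (-0.53 ± 0.18, adjusted p = 0.0250) ended with DESeq2 size factors and without SI tuft library 4 or thymic libraries 1 or 3 (adjusted p = 0.0597 to 0.161). Parp9 measured 35.2, 29.6, 38.0 and 47.4 CPM in thymic tuft cells. The SI tuft libraries measured 57.9, 52.1 and 54.6 CPM and those of SI epithelium 36.4, 33.1 and 32.1 CPM. Both of its calls, higher in SI tuft cells than in epithelium (0.70 ± 0.21, adjusted p = 0.0293) and lower in thymic than in SI tuft cells (-0.55 ± 0.19, adjusted p = 0.0298), ended when any SI tuft library was left out, the first also without any epithelial library and the second also without thymic library 1 or 2. Dtx3l measured 42.9, 55.8, 63.9 and 57.96 CPM in thymic tuft cells. Levels were 44.8, 47.7 and 60.96 CPM in SI tuft cells and 47.5, 42.8 and 48.8 CPM in SI epithelium. The groups overlapped, and no comparison called it (adjusted p = 0.670 for SI tuft cells and adjusted p = 0.293 for thymic tuft cells against SI epithelium). Parp9 and Dtx3l overlap each other on opposite strands.

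The remaining members have less settled roles and fell into 3 classes. Ifi27 (ENSMUSG00000064215, GRCm38 chromosome 12, 103434211 to 103440239, plus strand), a small membrane protein of mitochondria, was tuft-wide at 41.6, 68.2, 54.2 and 67.2 CPM in thymic tuft cells. For SI tuft cells the values were 134, 138 and 149 CPM, and for SI epithelium 15.9, 16.6 and 13.7 CPM. The groups were fully separate, with log2 fold changes of 3.19 ± 0.22, adjusted p = 7.56e-07 in SI tuft cells and 1.91 ± 0.20, adjusted p = 8.70e-06 in thymic tuft cells against SI epithelium and -1.28 ± 0.19, adjusted p = 0.000137 in thymic against SI tuft cells. Ifi35, a partner of the N-myc interactor NMI, was an SI tuft member at 41.6, 25.8, 41.6 and 31.1 CPM in thymic tuft cells. SI tuft libraries had 110.2, 93.2 and 100.4 CPM and epithelial libraries 36.7, 40.5 and 41.7 CPM. Thymic and epithelial libraries overlapped (-0.18 ± 0.20, adjusted p = 0.467), and SI tuft cells were above SI epithelium (1.35 ± 0.21, adjusted p = 0.000634) and above thymic tuft cells (-1.53 ± 0.19, adjusted p = 4.19e-05 in thymic against SI tuft cells).

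Ifi44 (ENSMUSG00000028037, GRCm38 chromosome 3, 151730922 to 151749960, minus strand) was a thymic tuft member at 17.2, 19.6, 36.1 and 33.3 CPM in thymic tuft cells. It had 7.095, 3.21 and 1.95 CPM in SI tuft cells and 1.600, 1.91 and 1.91 CPM in SI epithelium. All thymic libraries lay above all SI libraries, with log2 fold changes of 3.88 ± 0.52, adjusted p = 6.31e-05 against SI epithelium and 2.70 ± 0.49, adjusted p = 0.000651 against SI tuft cells. The difference between the SI populations was not called (1.18 ± 0.48, adjusted p = 0.106) but passed without SI tuft library 4 (adjusted p = 0.0491). Rtp4, a chaperone of taste and other membrane receptors, was tuft-wide with 26.6 ± 10.8 CPM in thymic tuft cells, 50.6 ± 17.9 CPM in SI tuft cells and 11.1 ± 1.01 CPM in SI epithelium. Fold changes on the log2 scale were 2.19 ± 0.37, adjusted p = 0.000993 in SI tuft cells and 1.26 ± 0.34, adjusted p = 0.00853 in thymic tuft cells against SI epithelium. Xaf1, a promoter of cell death, averaged 34.8 ± 6.44 CPM in thymic tuft cells, 53.3 ± 12.1 CPM in SI tuft cells and 21.8 ± 2.97 CPM in SI epithelium. It was higher in SI tuft cells (1.29 ± 0.25, adjusted p = 0.00275) and in thymic tuft cells (0.68 ± 0.23, adjusted p = 0.0290) than in epithelium. The thymic call ended without epithelial libraries 1 or 3 (adjusted p = 0.110 to 0.111). The lower levels of Rtp4 (adjusted p = 0.0314) and Xaf1 (adjusted p = 0.0400) in thymic than in SI tuft cells ended under 10 and 16 of 21 alternatives.

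The members' summed level was 2137 to 2353 CPM in thymic tuft cells, 3205 to 3772 CPM in SI tuft cells and 1277 to 1342 CPM in SI epithelium. Oas2 gave 1.53% to 3.91% of the sum in thymic tuft cells, 21.1% to 25.4% in SI tuft cells and 1.87% to 2.49% in SI epithelium. Without Oas2 the sums were 2054 to 2312 CPM in thymic tuft cells, 2390 to 2977 CPM in SI tuft cells and 1253 to 1310 CPM in SI epithelium. Per kilobase of exon, the order of the members also differed. In thymic tuft cells Oasl2 (98.0 CPM per kb), Isg15 (69.0) and Ifit1 (54.6) led. In SI tuft cells Oas2 (182 CPM per kb), Isg15 (119), Ifi27 (95.5) and Oasl2 (94.96) led, and the last pair were close together. In SI epithelium Oasl1 (69.4 CPM per kb) and Trim25 (42.7), the 2 members that were lower in thymic tuft cells, led. Spread between libraries was widest in thymic tuft cells, where the median coefficient of variation over the members was 22.7%, against 18.2% in SI tuft cells and 11.8% in SI epithelium. Thymic libraries also came from far fewer cells, so spread between animals and noise from few cells cannot be told apart.

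In a second list, of ISGs that are not members, more genes were higher in thymic than in SI tuft cells than were lower. Of 47 tested, 20 were higher and 5 lower in SI tuft cells than in epithelium, 31 were higher and 5 lower in thymic tuft cells than in epithelium, and 29 were higher and 9 lower in thymic than in SI tuft cells. Called either way were 22.3%, 50.9% and 51.6% of all tested genes. In the last comparison the median log2 fold change was 1.16 over this list, against -0.54 over the members and 0.12 over all genes. The 29 higher genes and the median include Ifi204, Gbp2b and Gbp11, which had almost no counts in SI tuft libraries. How far such genes carry the difference between the lists was not tested. Ifitm3, which blocks virus entry from endosomes, averaged 798 ± 132 CPM in thymic tuft cells, 30.1 ± 4.598 CPM in SI tuft cells and 121 ± 15.4 CPM in SI epithelium. It was lower in SI tuft cells (-2.01 ± 0.19, adjusted p = 1.08e-05) and higher in thymic tuft cells (2.72 ± 0.19, adjusted p = 2.66e-07) than in epithelium. Ly6e, a membrane protein that restricts coronavirus entry, averaged 2273 ± 459 CPM in thymic tuft cells, 202 ± 15.96 CPM in SI tuft cells and 446 ± 41.2 CPM in SI epithelium. The directions were the same (-1.14 ± 0.18, adjusted p = 0.000602 in SI tuft cells and 2.35 ± 0.18, adjusted p = 5.63e-07 in thymic tuft cells). Lgals3bp, a secreted glycoprotein, was the most abundant of those higher in SI tuft cells at 779.5 ± 101 CPM in thymic tuft cells, 3343 ± 299 CPM in SI tuft cells and 693 ± 32.9 CPM in SI epithelium. The log2 fold change was 2.27 ± 0.15, adjusted p = 5.71e-07 against SI epithelium and -2.10 ± 0.14, adjusted p = 1.60e-07 in thymic against SI tuft cells. Helz2, a helicase that acts as a transcriptional coactivator, averaged 169.5 ± 30.1 CPM in thymic tuft cells, 343 ± 37.8 CPM in SI tuft cells and 230.4 ± 26.4 CPM in SI epithelium. It was lower in thymic than in SI tuft cells (-1.02 ± 0.16, adjusted p = 0.000290). The member list and the second list were both drawn up with earlier results of these data known, and neither count says how ISGs as a whole behave.

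**Figure D4:**
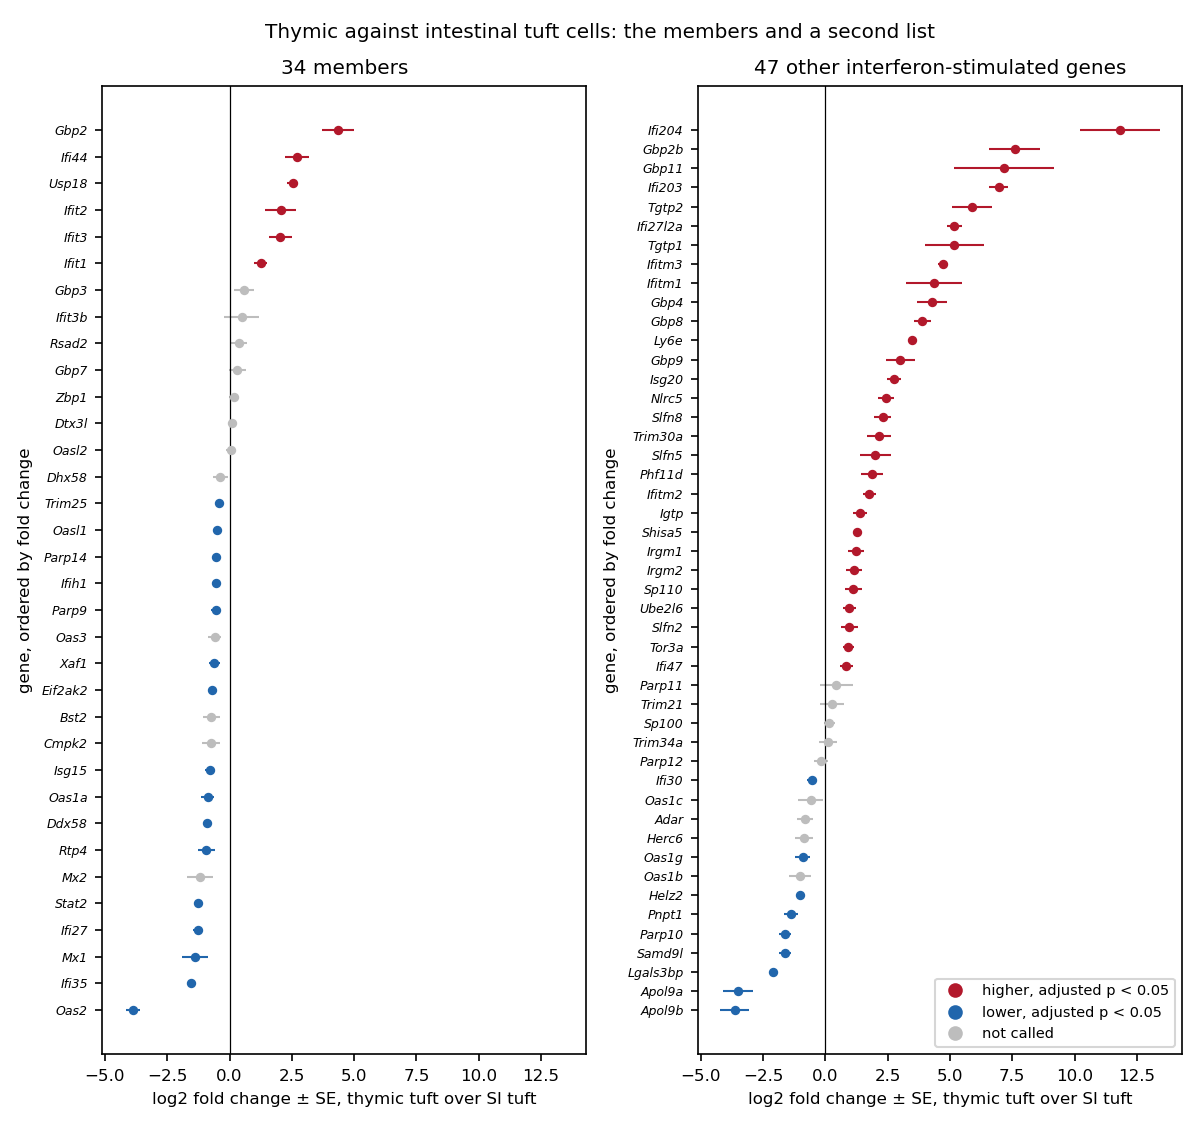
Log2 fold change with standard error for thymic over SI tuft cells, for the 34 analysed members on the left and 47 other ISGs on the right, each ordered by fold change on a shared axis, with red for called higher, blue for called lower and grey for not called. Among the members 6 are red and 16 blue, and on the second list 29 are red and 9 blue, and Ifi204, Gbp2b and Gbp11, at the top on the right, have at most 0.191 CPM in any SI tuft library.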

How the data were processed

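Per the submitters' processing notes, reads were handled with STAR, DESeq2 and the GRCm38 build, without versions, and the counter and annotation are not given in the sources used here. The deposited gene counts of the 10 libraries were used unchanged. Per the labels' protocols, poly(A) RNA of sorted cells was amplified with NuGEN Ovation V2 and made into libraries with Nextera XT, and per the series' design text the authors left out 1 SI tuft and 1 epithelial library for quality. Each library is 1 mouse, so replicates are animals.

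Symbols, exon lengths and coordinates came from GENCODE M21, which held 42548 of the 43432 identifiers. Genes were kept by filterByExpr (minimum count 10, total 15), libraries were scaled by TMM, and edgeR's quasi-likelihood model took all 10 libraries, with 1 mean for each group. P-values were adjusted by the Benjamini-Hochberg method over 19281 genes, and a gene was called below 0.05. Standard errors are the log2 fold change over the root of its F statistic. Software was edgeR 4.0.16 and DESeq2 1.42.0 (with limma 3.58.1) under R 4.3.3. The procedure was tested on simulated counts.

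Members and lists were chosen with earlier results of these data known. Library values are given for up to 3 members of each role with the highest mean CPM and for members whose class differs from the rest of their role, and values for further members were added after seeing them. From other lists at most 4 called genes each way were named, those with the highest mean CPM. The values of 1 such gene are not reported here. Promoters are from RefSeq GRCm38.p6. The detection floor covers counting error only. SDs and standard errors also hold the spread between libraries.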

Additional observations from a re-analysis of the deposited data

Results flagged for a closer look

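Among the 34 members, 3 had a thymic tuft library farther from the other 3 than Dixon's 95% limit for 4 samples allows, where chance flags about 1 in 20. Oasl2 was highest in thymic library 4 at 703.8 CPM, with the others between 591.7 and 605 CPM. Ifit3b was highest in thymic library 1 at 6.069 CPM, with the others between 1.847 and 2.528 CPM. Xaf1 was lowest in thymic library 3 at 25.3 CPM, with the others between 36.55 and 38.82 CPM. Groups of 3 were not screened.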

How the results depend on the processing

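The main counts are in the report. With DESeq2 size factors 1 member was lower in thymic tuft cells than in SI epithelium, 7 were lower in thymic than in SI tuft cells, and the SI tuft class held 2. Upper quartile scaling gave 9 lower in thymic than in SI tuft cells and an SI tuft class of 2, the DESeq2 Wald test gave 8 and 2, and subtraction of the counts shared between libraries gave an SI tuft class of 2. A filter of 10 CPM in 3 libraries, under which Gbp2, Ifit2, Ifit3b and Mx2 could not be tested, gave 6598 of all genes called in thymic against SI tuft cells and 2 members each in the SI tuft and thymic tuft classes. Fitting only the groups compared gave 6988 of all genes called in SI tuft cells against SI epithelium and 7 members lower in thymic than in SI tuft cells. A minimum change of 2-fold gave 11 members higher, 0 lower and 1805 of all genes in SI tuft cells against SI epithelium, 13 higher, 1 lower and 6307 of all genes in thymic tuft cells against SI epithelium, and 3 lower and 6383 of all genes in thymic against SI tuft cells. It left 7 tuft-wide, 2 SI tuft and 21 other members. The filter tests fewer genes and the minimum change sets a stricter test. For the other settings the cause was not tested. Leaving out mitochondrial genes changed no member or class count.

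Leaving out 1 library at a time gave, for SI tuft cells against SI epithelium, 16 to 23 members higher, 1 to 1 lower and 2888 to 5270 of all genes. For thymic tuft cells against SI epithelium it gave 17 to 22 higher, 2 to 2 lower and 7630 to 10041 of all genes, and for thymic against SI tuft cells 5 to 6 higher, 9 to 16 lower and 8343 to 10028 of all genes. The classes held 10 to 17 tuft-wide, 2 to 6 SI tuft, 3 to 4 thymic tuft and 8 to 15 other members.

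Directions changed for 22 of the single values, none of them called in the report or under the alternative. For thymic tuft cells against SI epithelium, Eif2ak2 had a log2 fold change of 0.2253 with size factors, 0.06387 with upper quartile scaling, 0.09919 with the 10 CPM filter, 0.2252 by the Wald test, 0.06301 after thinning, 0.06106 after subtraction and -0.08001 to 0.1073 over the libraries left out. In the same comparison Ifi35 had 0.04842 and 0.04858, and Ifih1 0.1073 and 0.1072, with size factors and by the Wald test. Over the libraries left out, Cmpk2 ran from -0.04626 to 0.5795 and Oas3 from -0.09154 to 0.1486. In SI tuft cells against SI epithelium Dtx3l ran from -0.002727 to 0.2317. In thymic against SI tuft cells Ifit3b ran from -0.005732 to 0.6893 and Oasl2 from -0.1197 to 0.3796.

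With the replicate number as a block, 18 members were higher and 1 lower in SI tuft cells against SI epithelium, 19 and 2 in thymic tuft cells against SI epithelium, and 5 and 14 in thymic against SI tuft cells, with 13 tuft-wide, 5 SI tuft, 3 thymic tuft and 13 other members and a log2 fold change of -0.0003463 for Dtx3l in SI tuft cells. Same-numbered libraries had correlations of deviations between -0.041 and 0.102, and the libraries closest to their own number were 0 of 4, 2 of 6 and 1 of 6 in the 3 comparisons. The highest value, 0.102, was between epithelial and thymic library 2. These few pairs gave no clear sign of pairing by number and cannot exclude it.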
